A study of Mus musculus with 2 samples.

Results

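NNC models are transcript models of annotated genes in which at least 1 end of an intron is absent from the annotation. They were read in heart tissue from male B6CASTF1/J mice at 2 months of age, F1 offspring of a C57BL strain crossed with CAST, which descends from wild mice. The series holds 1 group of 2 long-read RNA libraries, replicate 1 and replicate 2, each made from 2 µg of RNA, with no treatment and no contrast. The labels give the libraries separate biosamples, but another text field gives both the number of the same animal, so any difference shows how far 2 libraries vary, and not how far mice vary. Members were all models of annotated genes that the authors had classed as NNC, with spike-in RNAs left out. Replicate 1 held 9633 such models of 56750 mouse models in all, and replicate 2 held 12605 of 68986. Matched by chromosome, strand and intron chain (the ordered list of introns), they made 20261 distinct chains in 7095 genes, out of 73909 distinct spliced chains. The deposited class was checked against the GENCODE M21 annotation, and every NNC model had at least 1 end that the annotation lacks.

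The libraries held 454069 and 661958 reads, of which 432990 and 634479 were assigned to annotated genes. Cardiac muscle genes dominated, with Myh6, the alpha myosin heavy chain, at 36490 and 27652 CPM (reads scaled to a common total of annotated nuclear genes) and Pln, the phospholamban gene, at 6559 and 7258 CPM. All 16 marker genes of heart muscle, atria, fibroblasts, vessels, blood and immune cells were read in both libraries. Hba-a1, a globin gene of red blood cells, had 7528 CPM in replicate 1 and 1908 CPM in replicate 2. In bulk tissue, fewer cells of a type and less RNA per cell cannot be told apart.

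Splicing removes an intron between a donor, the end at the upstream exon, and an acceptor, the end at the downstream exon. The major spliceosome uses introns that open with GT at the donor and close with AG at the acceptor, and a small class opens with GC. A donor or acceptor a few bases from another one is called a tandem site, and its use lengthens or shortens an exon slightly. In the heart, splicing of sarcomere and calcium-handling genes is known to be under dedicated regulators such as Rbm20.

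The sequences below show new ends a few bases from an annotated one. They were read from GENCODE M21 transcripts (mm10), 5′ to 3′ on the strand of the gene, and capitals mark the 2 intron bases at the new end. The first runs are new donors 4 bases downstream of an annotated donor. In Idh3g, Tnni3 and Lmf1 the annotated intron begins with base 9 of the run and the new intron with base 13, and in Pitpna they begin with bases 19 and 23.
Idh3g, chrX:73782659-73782682, minus strand: tttcctcagtaaGTacctgccttg
Tnni3, chr7:4522289-4522312, minus strand: gctgatgagtatGTgaatcttcgt
Lmf1, chr17:25585845-25585868, plus strand: cagatctggtaaGTagagcctctc
Pitpna, chr11:75603463-75603486, plus strand: acccttactgcagaaccggtgaGT

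In these 4 genes the annotated intron opens with gt, and another GT follows 4 bases further on. The next 2 runs are new donors 3 bases upstream of the annotated one, which opens at base 16, inside coding exons of the carnitine acetyltransferase gene Crat and the lactate dehydrogenase gene Ldha.
Crat, chr2:30415303-30415326, minus strand: gctgccagaaccGTggtgagttcg
Ldha, chr7:46851044-46851067, plus strand: atggcgactccaGTggtaagtctt

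New acceptors lay mostly downstream of the annotated one, inside the exon. In the next 4 runs the exon of the new model begins with base 13, and the annotated exon begins with base 11 in Myh6 and in the adenylate kinase gene Ak1, base 10 in Dus1l and base 8 in Atp5j. The run of Sdhb starts at the new end itself, 6 bases into the annotated exon.
Myh6, chr14:54965462-54965485, minus strand: cccccataagAGtttgagtgacag
Ak1, chr2:32628441-32628464, plus strand: tgtcttgcagAGtgctgacctagc
Dus1l, chr11:120791929-120791952, minus strand: cttttacaggAGgacatgtctagg
Atp5j, chr16:84831491-84831514, minus strand: tctctagtacAGagactcagccat
Sdhb, chr4:140966499-140966522, plus strand: AGgcctgtcgaggggcacagacag

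The last pair is of another kind, an intron with both ends new inside 1 coding exon that is itself built of repeats. Zfp970, a zinc finger gene, had such an intron of 84 bases (chr2:177475881-177475964, plus strand), read 4 and 11 times. The direct repeat at its 2 ends measured 19 bases.
Zfp970 donor, chr2:177475869-177475892: aatgtaaccaatGTggtaaagcct
Zfp970 acceptor, chr2:177475953-177475976: aatgtaaacaATgtggtaaagcct

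NNC models took a small share of the reads and most were seen once. They received 15978 reads in replicate 1, 3.69% of the reads of annotated genes (95% interval 3.63 to 3.75), and 22247 reads in replicate 2, 3.51% (3.46 to 3.55), a mean of 3.60% ± 0.130 (SD, n = 2). NIC models, which join annotated ends in unlisted ways, took 5.39% and 4.93%, and known transcripts took 75.8% and 75.7%. Of the NNC models, 86.2% and 84.4% rested on 1 read, against 73.1% and 70.5% of NIC models and 27.7% and 26.9% of known transcripts. Over both libraries, 16558 of the 20261 NNC chains had 1 read in all, 381 had at least 10 and 54 had at least 50. A chain held 1 new end in 13914 cases, 2 in 4816, 3 in 925 and 4 or more in 606.

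The NNC class did not hold every read with an unannotated intron end. Such reads numbered 20430 in replicate 1, 4.72% of the reads of annotated genes (4.66 to 4.78), and 28924 in replicate 2, 4.56% (4.51 to 4.61), and 21.8% and 23.1% of them stood in other classes. Among NIC models, 17.8% and 19.4% had at least 1 end that GENCODE M21 lacks. Of the 2577 NNC chains read in both libraries, 600 were classed otherwise in the other library, 525 of these as NIC. Counted by intron, 0.688% and 0.705% of all introns read had a new end.

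New donors and new acceptors were about equally many but lay differently around annotated ends. Of 12796 distinct new donors, 3948 (30.9%, interval 30.1 to 31.7) lay within 10 bases of an annotated donor, 2610 of them downstream, in the intron, and 1338 upstream. Of 12136 distinct new acceptors, 4233 (34.9%, 34.0 to 35.7) lay within 10 bases of an annotated acceptor, 3967 of them downstream, in the exon, and 266 upstream. The interval covers counting error only, since ends of the same gene share its reads. A distance of 1 base was seen for 7 donors and 4 acceptors. The donors had a single peak at 4 bases downstream with 1850 ends, 14.5% of all new donors, and the next offsets, 4 and 3 bases upstream, had 282 and 238. Acceptors were spread over 2, 3 and 4 bases downstream with 838, 884 and 695 ends.

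**Figure D1:**
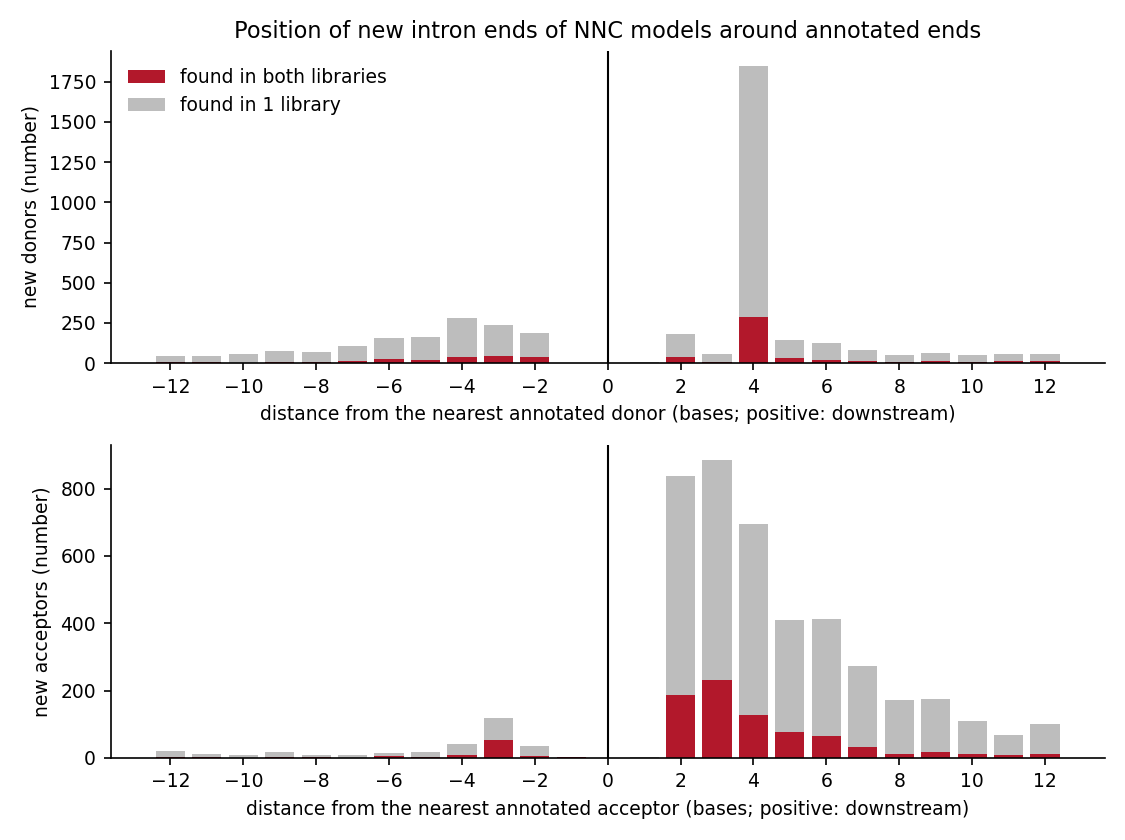
Number of distinct new donors (top) and new acceptors (bottom) of NNC models by distance in bases from the nearest annotated end, with positive values downstream in the direction of transcription; red is found in both libraries and grey in 1 library. Donors peak at 4 bases downstream with 1850 ends, and acceptors at 2 to 4 bases downstream with 838, 884 and 695.

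How often a tandem end recurred varied with its offset. Of the donors 4 bases downstream, 287 of 1850 (15.5%, interval 13.9 to 17.2) were found in both libraries, against 1322 of the 6473 donors over 100 bases from an annotated one (20.4%, 19.4 to 21.4). Acceptors 3 bases downstream recurred in 230 of 884 cases (26.0%, 23.2 to 29.0). Acceptors 3 bases upstream were few, 117, but 53 of them (45.3%, 36.1 to 54.8) were found in both libraries. These groups were not matched by reads per end. The 117 ends held 617 NNC reads, against 2012 for the 884 acceptors, 4845 for the 1850 donors and 13137 for the 6473 donors. The part of read number in recurrence was not tested. The 3-base upstream acceptors with most reads in NNC models were those of Nudt4 (35 and 72 NNC reads), Fam114a2 (21 and 49) and Nrap (20 and 22), which encodes a protein of developing myofibrils. The 3-base downstream acceptors with most reads in NNC models were those of the mitochondrial carrier gene Slc25a13 (37 and 33), the lipoprotein lipase gene Lpl (17 and 35) and Tmco3 (17 and 28). Among donors 4 bases downstream, Atp2a2, which encodes the SERCA2 pump that returns calcium to the sarcoplasmic reticulum, led with 375 and 431 NNC reads, followed by Idh3g with 187 and 291.

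Nearly all readable new ends carried a splice dinucleotide. The bases could be read where a GENCODE M21 transcript covers them, which held for 5285 new donors and 7745 new acceptors, so ends inside introns are mostly missing from these shares. They are bases of the mm10 reference, and differences of the CAST allele from it were not looked at. New donors opened with GT in 88.1% (interval 87.2 to 88.9) and with GC in 11.5%, against 98.6% and 1.24% of the readable annotated donors of the same models. New acceptors closed with AG in 96.4% (96.0 to 96.9) and with AT in 3.21%, against 99.8% and 0.0169% of annotated acceptors. Of 4304 new introns readable at both ends, 3857 were GT-AG, 332 GC-AG, 91 GT-AT, 12 CT-GC, 7 AT-AC and 5 CT-AC, and no other pair occurred. GT-AT, CT-GC and CT-AC are the pairs that AT-AC, GC-AG and GT-AG introns would show if read from the opposite strand. How strand was assigned to reads is not given in the sources used here. Whether processing corrected or removed introns with other pairs is not given either. Its part in these shares was not tested. The 3' UTR intron of Lpl, with 53 and 54 NNC reads, was one of the CT-GC pairs (chr8:68905164-68905819).

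A dinucleotide close to an annotated end often had a new end. Of 25503 annotated acceptors with at least 50 summed reads, 1223 had AG as the first 2 exon bases, and a new acceptor of an NNC model lay there in 521 (42.6%). That share was 36.3% for an AG that closes at exon base 3, 27.4% at 4, 16.5% at 5, 13.1% at 6 and 3.06% at 12. Donors gave a like series on the exon side, with 47.5% of 257 for a GT that opens 2 bases upstream, 30.9% at 3, 19.2% at 4 and 2.07% at 12. Of the 5243 annotated donors readable 4 bases downstream, 2126 (40.5%) had a GT there and 253 of these (11.9%) had a new donor. Positions without the dinucleotide had at most 31 new ends at each offset examined except 4 bases upstream of a donor, where 107 new donors lay at the 25096 positions without GT and 74 at the 385 with it. The shares are over annotated ends and have no replicate error, because both libraries were pooled. Any processing that favoured ends with a splice dinucleotide would shape these counts, and its part was not tested.

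**Figure D2:**
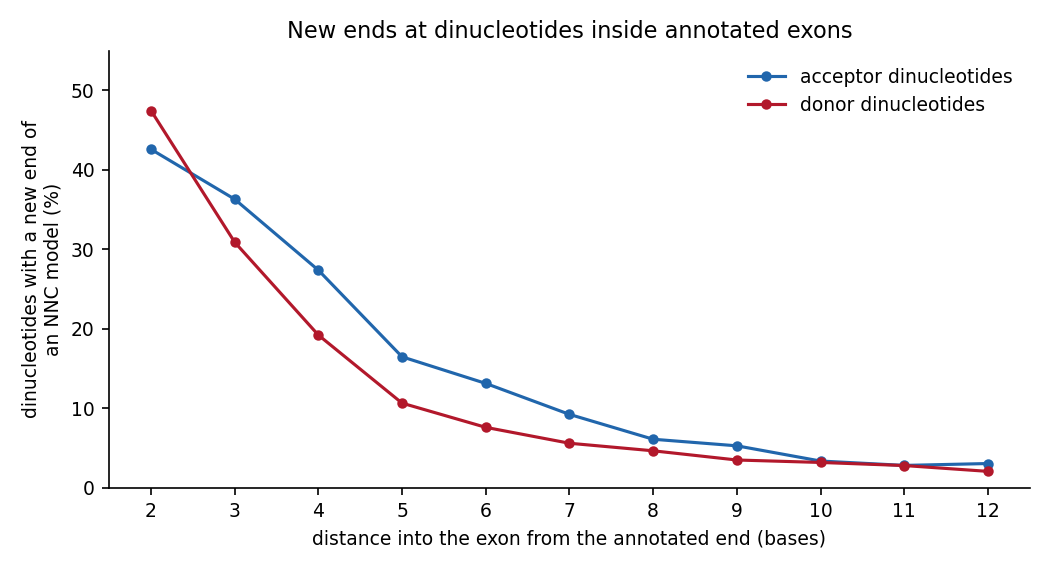
Share of splice dinucleotides inside annotated exons at which a new end of an NNC model was found, in percent, by distance in bases from the annotated end, for ends with at least 50 summed reads and both libraries pooled. The share for acceptors falls with distance, with 42.6% at 2 bases and 3.06% at 12, and that for donors with 47.5% and 2.07%.

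Offsets that keep the reading frame were counted among new ends 11 to 100 bases from an annotated one. Among such donors 38.8% (interval 36.6 to 41.1) were multiples of 3 at coding edges, against 33.7% (29.6 to 37.9) at edges that were not coding, with overlapping intervals. The share was 45.7% (40.1 to 51.4) for coding donors found in both libraries and 37.4% (35.0 to 39.9) for those found in 1 library. For acceptors the corresponding shares were 43.6% (41.6 to 45.7) at coding edges, against 40.5% (34.9 to 46.2) at edges that were not coding, again with overlapping intervals. Coding acceptors found in both libraries had 48.4% (42.5 to 54.4) and those found in 1 library 43.0% (40.8 to 45.2), also with overlapping intervals. Within 10 bases, 38.5% (37.0 to 40.1) of coding acceptors were multiples of 3, against 35.7% (30.6 to 41.0) at edges that were not coding. For donors these shares were 18.3% (17.0 to 19.6) and 18.5% (14.6 to 23.0). Both pairs of intervals overlapped.

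New introns fell into 4 kinds. In 10114 the donor was new, in 9328 the acceptor, in 811 both ends were new and lay inside 1 annotated exon, and in 2477 both were new and lay elsewhere. Introns inside an exon were short, with a median of 181 bases, and 656 of the 806 readable ones were GT-AG. A direct repeat of at least 6 bases at the 2 ends was found in 8.19% of the 806. It was found in 7.71% of the 506 readable introns whose 2 new ends lay elsewhere. Where only the donor was new the share was 1.18% of 1352 readable introns, and where only the acceptor was new 1.52% of 1640. Of the 6303 readable annotated introns of the same models, 2.36% had such a repeat. New introns stood more often at the ends of a chain. In NNC models of at least 3 introns, 31.9% and 31.4% of first introns had a new end, 17.8% and 18.5% of last introns, and 7.09% and 7.41% of those between.

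By chain, the largest groups were 4586 chains (22.6%) whose new ends all lay up to 100 bases from an annotated one without all lying within 10, and 3371 (16.6%) and 2974 (14.7%) with new acceptors or new donors within 10 bases. A new first-exon donor over 100 bases away defined 2573 chains, and 492 of these (19.1%) were read in both libraries. New internal exons were part of 2360 chains, which took 9.78% and 9.35% of NNC reads.

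The 2248 new internal exons, bounded by a new acceptor and a new donor and overlapping no annotated exon of the same strand, had a median length of 105 bases, and 367 were found in both libraries. Their length was a multiple of 3 in 42.2% (interval 37.1 to 47.5) of those found in both and in 37.3% (35.1 to 39.6) of those found in 1 library, with overlapping intervals. Of the 10 most read, 9 had such a length, and the exception was the most read of all, that of Kcng2. Fermt2, which encodes the integrin activator kindlin-2, had new exons of 21 bases (chr14:45462715-45462735, 39 and 50 reads) and of 24 bases (chr14:45463246-45463269, 24 and 35 reads). Lrrfip2 had new exons of 54 and 57 bases, each with 28 and 33 reads, and the deubiquitinase gene Usp25 had exons of 114 and 96 bases, each with 20 and 29. Kcng2, a potassium channel subunit gene on chromosome 18, had the most read of these exons, of 167 bases with 36 and 64 reads. Ywhae, a 14-3-3 protein gene, had one of 45 bases (chr11:75762698-75762742, 28 and 31 reads), and Tmem65, which encodes a membrane protein of cardiac and mitochondrial membranes, one of 81 bases (42 and 54 reads).

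For each new end, its share was taken among the reads of spliced models of the gene that extend across it, in all classes. Of 12979 ends with at least 20 such reads in each library, 95.4% had a mean share under 5% and the median was 0.746%. A small set behaved otherwise: 271 ends had 10% or more in each library, 74 had 50% or more and 25 had 90% or more. The 74 ends belonged to 55 genes. Of 411 ends with 10% or more in 1 library, 25 were absent in the other, and the median gap between the libraries was 5.40 percentage points.

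**Figure D3:**
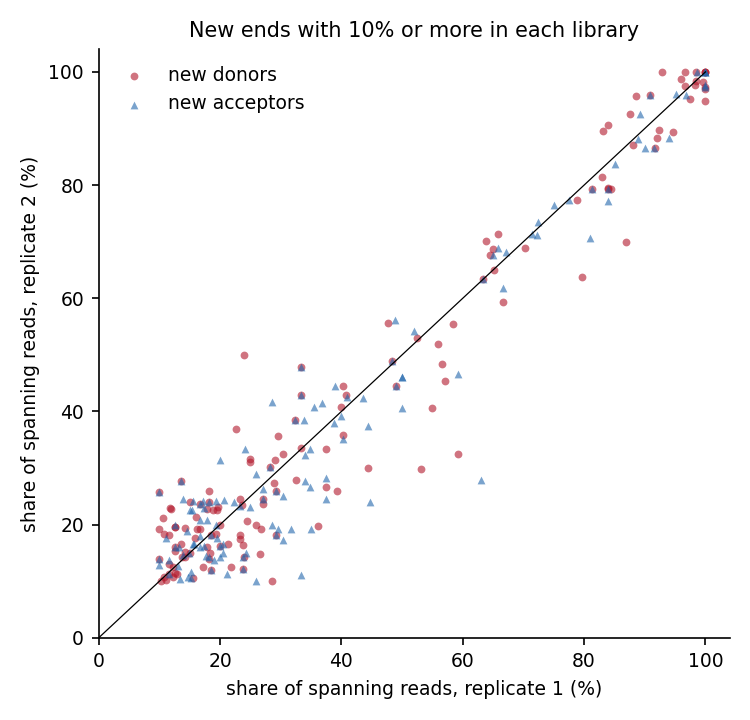
Share of spanning reads that used a new end, in percent, in replicate 1 (horizontal) and replicate 2 (vertical), for the 271 ends with 10% or more in each library; circles are donors, triangles acceptors, and the line marks equal shares. The points lie along the line, with 25 ends at 90% or more in each library. Ends under 10% in either library are left out, so the plot does not show how often the libraries differ.

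Several of these ends stood in genes of mitochondria. Vdac3, an anion channel of the mitochondrial outer membrane, had a new donor 1 base downstream of the annotated one in 196 of 207 and 310 of 347 spanning reads, 92.0% ± 3.78. In Idh3g, a subunit gene of the mitochondrial isocitrate dehydrogenase, the donor 4 bases downstream was used by 193 of 196 and 304 of 309 spanning reads, 98.4% ± 0.0619. Mrpl33, a mitochondrial ribosomal protein gene, had a donor 8 bases downstream in 117 of 121 and 196 of 201 reads, 97.1% ± 0.579.

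In Atp2a2 (ENSMUSG00000029467.15, chr5:122453513-122502225) the donor at position 122501563, 4 bases downstream, was used by 413 of 5021 and 489 of 5923 spanning reads, 8.24% ± 0.0216. It made the most read NNC model of the series, with 359 and 408 reads, 741 ± 132 CPM. Another Atp2a2 donor, also 4 bases downstream (position 122461858), had 1.61% ± 0.225, and in the 3' UTR a new acceptor (position 122456512) had 1.26% ± 0.103 and a new donor downstream of it (position 122456454) had 1.72% ± 0.0865. Sdhb, the iron-sulfur subunit of succinate dehydrogenase, had an acceptor 6 bases into a coding exon in 59 of 800 and 112 of 1258 spanning reads, 8.14% ± 1.08. Atp5j, a subunit gene of ATP synthase, had one 5 bases downstream at 7.88% ± 1.52. In Myh6 the acceptor 2 bases downstream in the 5' UTR had 254 of 13438 and 307 of 14126 spanning reads, 2.03% ± 0.200, of which 107 and 24 stood in NNC models.

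Other models among the 20 with most NNC reads came from Car14, Hfe2, Bsg, Capn2, Mknk2, Cct6a, Pitpna, Dctn2, Lpl and Zfp970, with 107 to 162 summed NNC reads each. Car14, a membrane carbonic anhydrase gene, had an acceptor 22 bases upstream in 95.6% ± 0.730 of spanning reads, and a donor 26 bases downstream in 33.4% ± 0.0986. Hfe2, the hemojuvelin gene of iron regulation, had an acceptor 18 bases upstream in 52.5% ± 5.23, and the basigin gene Bsg one 28 bases upstream in 5.45% ± 0.593. Capn2, a calpain protease gene, had a donor 17 bases downstream in 99.2% ± 1.12. In the chaperonin gene Cct6a the donor 61 bases downstream had 49 of 56 and 75 of 81 spanning reads, and the acceptor 33 bases upstream had 90.9% ± 2.34.

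Some new ends moved an intron as a whole. In 84 introns both ends were displaced by the same number of bases against 1 annotated intron, 72 of them by 4 bases downstream, so the spliced RNA has the annotated length. These introns took 119 and 193 NNC reads, of which 1 intron of Ptcd3 held 40 and 65 and 1 of Got2 held 41 and 56. Of the 84 introns, 8 were found in both libraries. In Ptcd3, a mitochondrial translation gene, 44 of 44 and 74 of 76 spanning reads placed the intron at chr6:71889366-71889589. Got2, the mitochondrial aspartate aminotransferase gene, did so in 40.2% and 35.8% of 102 and 162 spanning reads at the donor. The displaced bases could be read at both ends in 16 of the 84 introns, and they were the same at both ends in 1. The most read introns of Ptcd3 and Got2, given above, were not among the 16, so their displaced bases were not compared.

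Some new donors lay upstream of the annotated gene, so that the model begins with a first exon the annotation lacks. Sbk1, a protein kinase gene, had a donor at an offset of -23987 bases from the nearest annotated one in 90 and 84 reads, out of 103 and 112 reads of the gene. In Myh6 a donor at an offset of -977 bases (position 54967867) had 252 and 265 reads, out of 15700 and 17418 reads of the gene. For such ends the share of spanning reads, 100% in Sbk1 and 98.9% ± 1.03 in Myh6, counts reads that begin further upstream and not the gene as a whole.

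NNC chains with 1 read recurred in the other library less often than those of other classes, and every chain with 10 or more reads recurred. Of the 8299 NNC models with 1 read in replicate 1, 15.8% (interval 15.02 to 16.60) were found in replicate 2, against 26.8% (25.6 to 27.9) of NIC models and 54.8% (53.2 to 56.5) of known transcripts with 1 read. With 2 reads the shares were 58.7%, 66.9% and 81.4%, and with 5 to 9 reads 98.4%, 98.0% and 99.6%. All 116 NNC models with 10 or more reads in replicate 1 and all 183 such models of replicate 2 were found in the other library. In all, 2577 of 20261 chains (12.7%) were read in both libraries, and they held 21749 reads. The search finds a chain in any class, and its power depends on the depth of the library searched.

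**Figure D4:**
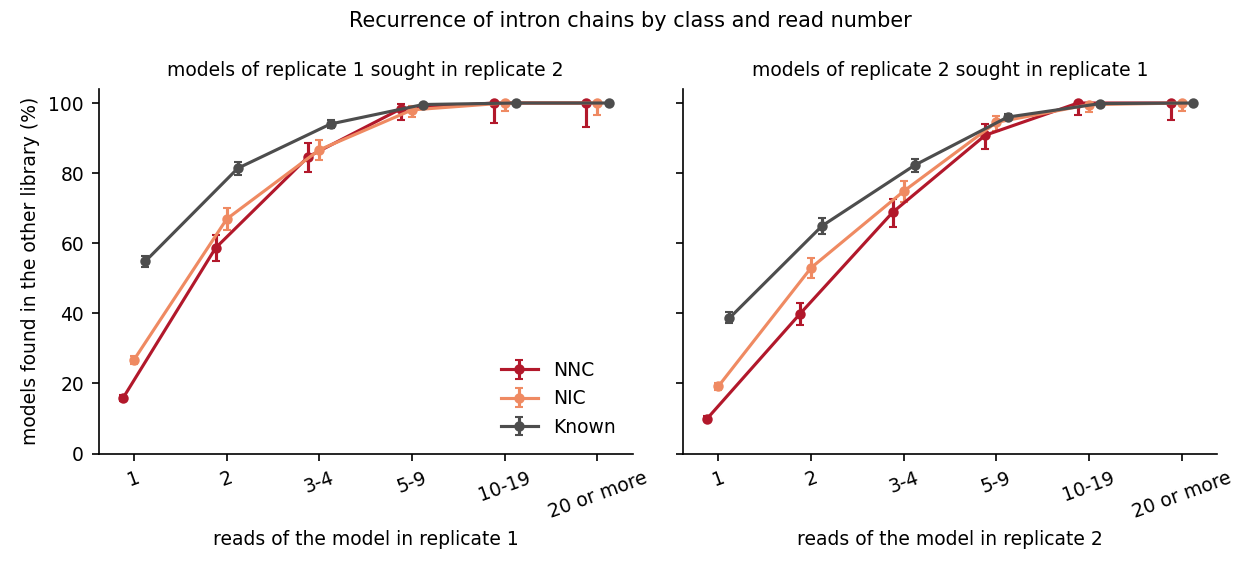
Share of models of a library that were found in the other library, in percent with 95% intervals, by reads of the model, for NNC, NIC and known spliced models; replicate 1 models are on the left and replicate 2 models on the right. NNC lies lowest at 1 read, 15.8% on the left, and the classes meet at 100% or close to it from 10 reads on.

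No NNC model was called between the libraries at an adjusted p under 0.05 and a 2-fold difference. Of the 381 chains with at least 10 summed reads, 0 were called by an exact binomial test with Benjamini-Hochberg adjustment over all 8543 spliced chains tested, of which 0.117% were called. An unadjusted p under 0.05 was seen for 21 of the 381 (5.51%), and for 6.60% of all chains. The median log2 ratio of replicate 1 over replicate 2 was 0.02 for NNC chains, and 84.0% lay within 2-fold. Depth allows a limited view of single models: for the leading Atp2a2 model the ratio of replicate 1 over replicate 2 was 1.29 (interval 1.11 to 1.49), and for Zfp970, with 43 and 64 reads, it was 0.984 (0.652 to 1.47).

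By gene, the share of reads in NNC models differed for 18 of 2748 genes that had 20 reads or more in both libraries and at least 1 NNC read in either (0.655% called, Fisher's exact test, adjusted p under 0.05 and 10 percentage points), 13 higher in replicate 1 and 5 higher in replicate 2. Mknk2, a kinase gene of translation control, had 155 of 260 reads in NNC models in replicate 1 and 28 of 303 in replicate 2 (59.6% and 9.24%, adjusted p 2.12e-35 by Fisher's exact test). Tnni3, cardiac troponin I, had 127 of 272 and 62 of 402 (46.7% and 15.4%). Sbk1 had 1 of 103 and 84 of 112, the splicing regulator Qk 42.6% and 1.26%, the peroxisomal transporter gene Abcd3 77.6% and 2.11%, and the Z-disc gene Pdlim5 57.4% and 6.04%. Smdt1, which encodes a part of the mitochondrial calcium uniporter, had 5 of 102 and 80 of 160, the mitofusin gene Mfn2 4.95% and 17.9%, Armc2 12.2% and 81.0%, and the RNA-binding protein gene Hnrnpk 33.3% and 6.83%.

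The libraries lay closer together when reads with an unannotated end were counted in every class. By that measure Mknk2 had 65.4% and 63.4%, Tnni3 51.5% and 52.7%, Qk 64.5% and 62.3%, and Hnrnpk 95.8% and 92.8%. The widest gap among the 18 genes was that of Lsm6, with 63.0% and 31.8%. Counted this way, 0 of 2764 genes were called (0% called, Fisher's exact test), with 53 at an unadjusted p under 0.05. The main Mknk2 chain had 128 reads in replicate 1, classed NNC, and 138 reads in replicate 2, classed NIC, both with the donor 42 bases upstream of the annotated one.

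**Figure D5:**
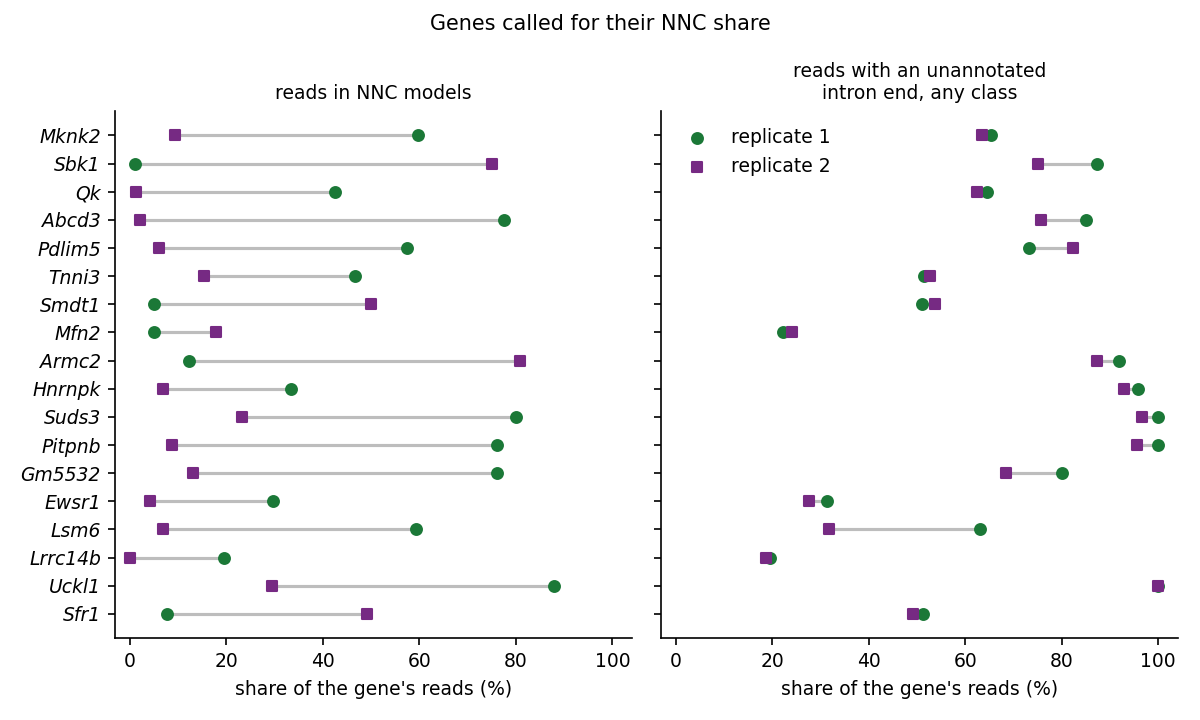
Share of the reads of each of the 18 called genes that stood in NNC models (left) and that had an unannotated intron end in any class (right), in percent; circles are replicate 1 and squares replicate 2. The libraries stand apart on the left, as for Mknk2 at 59.6% and 9.24%, and close together for most genes on the right, where Mknk2 had 65.4% and 63.4%.

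Over the 3328 genes with 20 reads or more in both libraries, the median NNC share was 2.22% and 2.25%, and 231 genes had 10% or more in both. An unannotated end in any class was carried by 50% or more of the reads in both libraries in 58 genes. Among the genes with most NNC reads were Atp2a2 (595 and 718), Myh6 (430 and 317), Vdac3 (196 and 313) and Idh3g (188 and 293). Further genes were Car14 (118 and 210), Mrpl33 (116 and 199), Lpl (83 and 112), Zfp970 (67 and 125), Tnni3 (127 and 62), Sdhb (64 and 123), Mknk2 (155 and 28), Mfn2 (32 and 143), Bsg (69 and 103) and the tropomyosin gene Tpm1 (51 and 113). The number of chains followed the depth of the gene in places: Myh6 had 415 distinct NNC chains, while Idh3g had 7.

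Gene lists of heart functions were described by introns with a new end per 1000 introns read, in all classes, with 6.88 and 7.05 over all annotated genes. NNC reads were found for 7095 of the 14534 annotated genes read, with a median share per gene of 0%, and the share per gene counts both libraries together. Of these genes, 3328 had 20 reads or more in both libraries, and their median share was 2.22% and 2.25% by library. The lists were not matched by depth to either set. The thick and thin filament list had 3.11 ± 0.240, with NNC reads in 15 of 15 genes and a median share of 1.78%, led by Myh6 and Tnni3, and 5.96 ± 0.300 without Myh6. The list of titin, Z-disc and costamere genes had NNC reads in 15 of 15 genes and a median share of 2.17%, and Nexn, an actin-binding Z-disc gene, had 30 and 70 NNC reads. Calcium handling and excitation had 8.11 ± 0.0584, with 12 of 14 genes and a median of 1.30%, led by Atp2a2, while Srl, which encodes sarcalumenin, had 8 and 15 NNC reads.

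Lists of energy metabolism lay at or below the value of all annotated genes. Oxidative phosphorylation had 1.70 ± 0.185 per 1000 introns, with 18 of 18 genes and a median of 0.790%, led by Sdhb and by Uqcrc1 of complex III (28 and 57 NNC reads). Fatty acid use had 2.50 ± 0.0136, with 17 of 18 genes and a median of 1.57%, led by Lpl and the acyl-CoA dehydrogenase gene Acadvl (35 and 44). The listed genes of the TCA cycle and glycolysis had 2.13 ± 0.136, with 21 of 21 genes and a median of 1.37%. They were led by the enolase gene Eno3 (31 and 53) and by Idh3a (27 and 47). This list leaves out Idh3g, which had 188 and 293 NNC reads against 267 and 396 for the whole list. Mitochondrial carriers and channels had 6.93 ± 0.104, with 12 of 12 genes and a median of 1.31%, led by Vdac3 and Slc25a13, and 2.70 ± 0.0128 without Vdac3.

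The 16 listed genes of cytosolic ribosomal proteins had 1.20 ± 0.282 per 1000 introns, with NNC reads in 9 genes and a median of 0.359%. Rpl5 and Rps27a led the list with at most 4 NNC reads in 1 library, and the whole list had 7 and 14. The list leaves out Rps24, a gene of the same kind with 30 of 49 and 50 of 77 reads in NNC models, so its values do not describe all such genes. Splicing regulators had 33.1 ± 1.85, with 17 of the 22 genes read and a median of 2.91%, led by Hnrnpk (55 and 20) and by Hnrnpa2b1 (6 and 8). In Hnrnpk a donor 16 bases downstream was used by 156 of 160 and 261 of 274 spanning reads, and without Hnrnpk the list had 9.78 ± 0.376. Collagens and matrix had 2.25 ± 0.00498, with 11 of 12 genes and a median of 3.09%, led by Col3a1 (6 and 13) and Col6a1 (3 and 7). In the gene test, 1 gene each was called in the thick and thin filament list (Tnni3), the Z-disc list (Pdlim5) and the splicing regulators (Hnrnpk), of 15, 15 and 10 genes tested, all higher in replicate 1, and none in the other 7 lists, against 0.655% over all genes tested. None of the 3 was called when unannotated ends were counted in any class (adjusted p 1 for each, Fisher's exact test). Lists differ in depth, intron number and annotation, and their part in these values was not tested.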

How the data were processed

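The deposited tables, 1 for each library, hold the number of reads of every transcript model as whole-number counts, beside the class of the model, and deposited annotation files give the exons. Reads were placed on mm10 and compared with GENCODE M21, and models were made with TALON, per the file headers and the text files deposited with the tables. The aligner, read correction and versions are not given in the sources used here. Members, gene lists and tests were chosen with earlier results of these data known. Libraries of 454069 and 661958 reads give floors of 6.97 and 4.76 CPM (3 reads, of 430251 and 629896 reads of annotated nuclear genes).

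Intron ends were compared with all ends in GENCODE M21 (Python 3.11.15, numpy 2.4.6, scipy 1.17.1). A donor position is the first and an acceptor position the last intron base, and offsets count from the nearest annotated end of the same kind and strand. Bases came from GENCODE M21 transcripts rebuilt on mm10, and a genome was not used here. Shares have exact Clopper-Pearson 95% intervals, which cover counting error only. Chains with at least 10 summed reads were compared between the libraries by an exact two-sided binomial test given the nuclear totals, and genes that had 20 reads or more in both libraries and at least 1 NNC read by the two-sided exact test of Fisher, both with Benjamini-Hochberg adjustment and tested on simulated data. Log2 ratios have 0.5 reads added to each count. Named were the 20 models, 15 genes, 10 donors and 10 acceptors with most NNC reads, up to 10 called genes, and the 2 members of each of 10 lists with most NNC reads, ties by symbol; other names follow offset, new exon or share and were picked once the values were known. Reads of overlapping or near-identical genes were used as the authors assigned them, so their split is uncertain. Some named items are not reported here.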

Additional observations from a re-analysis of the deposited data

Results flagged for a closer look

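NNC models were also deposited for loci that the annotation lacks, which no comparison above uses. In loci opposite to annotated genes they had 37 reads in replicate 1 and 47 in replicate 2, over 23 and 36 models, with at most 5 reads a model in each library. In loci between genes they had 41 and 60 reads over 27 and 34 models, with at most 12 and 10 reads. The 3 reads that a count of 0 allows hold for 1 count, so sums over this many models cannot be judged by them. How strand was assigned to reads is not given in the sources used here, and its part in the antisense reads was not tested.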

How the results depend on the processing

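The NNC share of reads, 3.60%, became 1.80% with models of at least 2 reads and 4.64% when unannotated ends were counted in any class, and ranged from 3.51% to 3.69% with a replicate left out. The share of chains found in both libraries, 12.7%, became 14.5% with ends matched within 5 bases, 96.8% for chains with at least 5 summed reads, and 9.76% when the class NNC was required in both. The share of new donors within 10 bases, 30.9%, became 27.3% for ends with at least 2 reads and 26.4% for ends in both libraries (28.8% to 31.2% with a replicate left out), and that of acceptors, 34.9%, became 39.1% and 40.1% (35.2% to 36.0%). GT at donors, 88.1%, became 90.9% and 90.2% (88.2% to 88.5%), and AG at acceptors, 96.4%, became 98.0% and 97.8% (96.6% to 96.7%). The count of NNC models called, 0, became 1 with spike-in reads as the denominator, a Tpm1 model with an acceptor 2 bases downstream (26 and 65 reads), and 32 when only reads of the class NNC were counted. The count of genes called, 18, was 19 and 13 with minima of 10 and 50 reads, and became 0 when unannotated ends were counted in any class. The counts by class were chosen as alternatives after seeing the data. No paired analysis was possible because the series holds 1 group. Most NNC models rest on 1 read, so at this depth a chain absent from a library may still be present in it.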

Other observations

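In a few genes most reads had an unannotated end while few stood in NNC models, as other classes held them in both libraries; these genes were chosen after their values were seen. Coro6, a coronin of striated muscle, had an unannotated end in 62.5% of 144 reads and 67.6% of 176 reads, against 4.17% and 3.98% in NNC models. Lmo7, which encodes a protein of cell junctions, had 82.5% and 74.2%, against 11.7% and 8.59% in NNC models. Pde4dip, myomegalin, had 91.5% and 88.4%, against 14.1% and 12.3%. In each of these genes both libraries lay within 10 percentage points of each other on both measures.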
